A study of Mus musculus with 2 samples.

Results

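Adenosine signalling was described through 10 genes, chosen by name, in mouse pericardial adipose tissue (PAT), the fat that surrounds the heart. They are the 4 adenosine receptors (Adora1, Adora2a, Adora2b, Adora3), 4 ectonucleotidases (Nt5e, Entpd1, Entpd2, Enpp1) and the 2 enzymes that remove adenosine (Ada, Adk). Each was found by its symbol as 1 row of the 23609 genes that the authors list. PAT came from C57BL/6J P2Y4 KO mice and from C57BL/6J wild type (WT) mice, which carry an intact P2Y4 nucleotide receptor. All mice had undergone permanent ligation of the left anterior descending artery (LAD), which cuts off blood to part of the left ventricle, 24 hours before the tissue was taken. The study used males and females aged 11 to 13 weeks. RNA of 3 mice was pooled into 1 library per genotype, so there was no replicate, no test across mice was possible, and every comparison was between 1 P2Y4 KO library and 1 WT library. P2ry4 itself was not among the listed genes, none of which was at 0 in WT PAT. No check of the genotype by the deleted gene was therefore possible.

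Extracellular ATP, released by stressed or dying cells, is taken down to AMP by ectonucleotidases on the cell surface, and the AMP is split to adenosine by CD73, the product of Nt5e. Adenosine then acts on G protein-coupled receptors. The receptors encoded by Adora1 and Adora3 lower cyclic AMP through Gi proteins, and those encoded by Adora2a and Adora2b raise it through Gs proteins. In adipocytes the Adora1 receptor is known for restraining lipolysis, and on leukocytes the Adora2a receptor is known for damping inflammation. The signal ends when adenosine is taken up and either phosphorylated by adenosine kinase or deaminated by adenosine deaminase.

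By the steps between values, the deposited value of a gene is its read number scaled to 20000000 per library and rounded up, and expression is given as CPM, the value divided by 20. These steps gave 14885824 reads for the P2Y4 KO library and 15508820 for the WT library, so that 1 read was worth 1.34 in P2Y4 KO PAT and 1.29 in WT PAT. A gene was tested when it had CPM above 0.5 in at least 1 library, and the limits in the study's methods were used, a P2Y4 KO/WT ratio of 2 or more for a call of higher and of 0.5 or less for a call of lower. The range after the P2Y4 KO/WT ratio of a gene is its exact 95% Clopper-Pearson interval. For pairs of genes, the range is the exact 95% conditional interval of the odds ratio of their reads. For a gene relative to summed markers, it is the 95% interval of the odds ratio by a normal approximation on the log scale. These ranges cover counting error only. They say nothing of differences between mice, dissections or library preparations. Large differences in the levels of cell type markers stood beside all results. The summed level of 10 cardiomyocyte markers was 507 CPM in P2Y4 KO PAT, against 9.15 CPM in WT PAT, all 10 were called higher, and the defining heart muscle gene Myh6 stood at 4 reads in WT PAT. The defining fat cell genes Adipoq and Plin1 were present in both libraries. In bulk tissue, fewer cells of a type and less RNA per cell cannot be told apart.

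Adora1 was the one gene of the 10 that passed the limit, and it was higher in P2Y4 KO PAT. All 10 genes were tested, 1 was called higher (10%, beside 8.75% of the 18474 genes tested) and none was called lower (beside 4.4%). The other 9 had ratios from 0.828 (Nt5e) to 1.59 (Entpd2). The counting interval lay wholly above 1 for 5 genes (Adora1, Adora2a, Entpd1, Entpd2, Ada), as it did for 25.2% of all genes tested. It lay wholly below 1 for Nt5e alone, as for 23.5% of all genes, and it spanned 1 for Adora2b, Adora3, Enpp1 and Adk. The median log2 ratio of the 10 genes was 0.31, beside 0.00 for all genes tested. The shares of all genes called higher and called lower are not formed alike. No listed gene was at 0 in WT PAT, while 919 were at 0 in P2Y4 KO PAT. With the 86 ribosomal protein genes set to a median ratio of 1, every log2 ratio gains 0.20, so that ratios just below 1 turn above it.

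**Figure D1:**
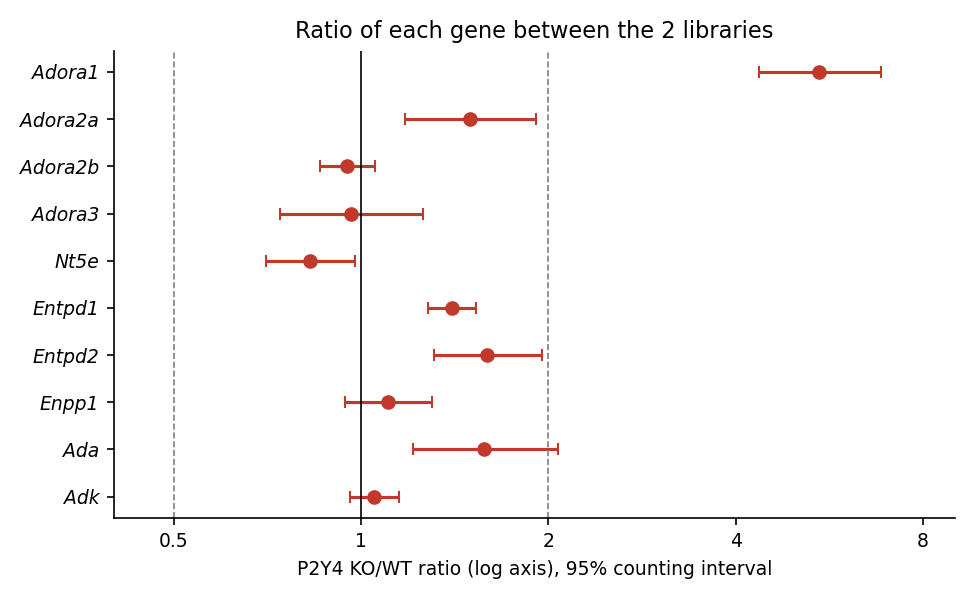
P2Y4 KO/WT ratio of each gene on a log axis, with points for the ratio of the deposited values, bars for the 95% counting interval, a solid line at 1 and dashed lines at 0.5 and 2. Adora1 at 5.44 lies past the upper dashed line, and the other 9 genes lie between 0.828 and 1.59.

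Adora1 encodes the A1 receptor, the Gi-coupled receptor through which adenosine restrains lipolysis in fat cells and slows the pacemaker of the heart. It had 501 reads (33.7 CPM) in P2Y4 KO PAT, against 96 reads (6.20 CPM) in WT PAT, a ratio of 5.44 (4.36 to 6.84). Of all genes tested, 1.32% had a ratio as high or higher. In P2Y4 KO PAT it was more abundant than 62.7% of the genes tested, and in WT PAT than 35.1%. The gene (ENSMUSG00000042429) is protein-coding and lies on the minus strand of chromosome 1, from 134199223 to 134235431 in GRCm38, the build of all gene positions here. Of its 5785 exon bases, 1162 (20.1%) are shared with Mybph on the opposite strand, which encodes myosin binding protein H of striated muscle. Mybph had 9.95 CPM in P2Y4 KO PAT and 2.15 CPM in WT PAT. Since the strand setting of the counting is not given in the sources used here, reads of the shared stretch cannot be assigned with certainty to either gene.

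Both adipocytes and cardiomyocytes are known to express Adora1, and markers of both were higher in P2Y4 KO PAT. Of 10 adipocyte markers 7 were called higher, and their summed level was 5718 CPM in P2Y4 KO PAT, against 3086 CPM in WT PAT. Their ratios ran from 1.48 for Fabp4, a fatty acid binding protein, to 27.6 (12.8 to 78.7) for leptin, Lep, which had 6 reads in WT PAT. Plin1, which coats the lipid droplet, had a ratio of 3.80 (3.55 to 4.08), and Adrb3, the adrenergic receptor that drives lipolysis, had 7.37 (5.98 to 9.24). Relative to the summed reads of the adipocyte markers, Adora1 was 2.93 times as high in P2Y4 KO PAT as in WT PAT (2.36 to 3.65). That sum is weighted to abundant markers with low ratios, Fabp4 at 1914 CPM and Cfd (ratio 1.69) at 1628 CPM in P2Y4 KO PAT. The sums had a ratio of 1.85, while the median log2 ratio of the adipocyte markers was 1.46, beside 2.44 for Adora1. Relative to the 8 brown and beige adipocyte markers, all called higher, Adora1 was 0.267 times as high (0.209 to 0.342). Relative to the cardiomyocyte markers it was 0.0949 times as high (0.0720 to 0.125). None of these markers was at 0 in P2Y4 KO PAT. In WT PAT no listed gene was at 0, so that the same for the markers there says nothing of these cells. The part of either cell type in the Adora1 ratio was not tested.

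Adora2a and Adora2b, the Gs-coupled receptors, had smaller differences. Adora2a had 168 reads (11.3 CPM) in P2Y4 KO PAT, against 117 reads (7.55 CPM) in WT PAT, a ratio of 1.497 (1.17 to 1.91) that did not reach 2. Of all genes tested, 16.5% had a ratio at least as high. The receptor is found on T cells, macrophages and endothelium among other cells. The summed level of the 10 T cell and regulatory T cell markers was 53.05 CPM in P2Y4 KO PAT and 44.25 CPM in WT PAT, and that of the 10 endothelial markers was 222 CPM in P2Y4 KO PAT and 172 CPM in WT PAT. The markers within both lists went opposite ways. Of the T cell list, Cd3g (2.72), Cd4 (2.21), Cd6 (4.32) and Cd8a (3.30) were called higher and Il2ra (0.442) lower, with Foxp3, the regulatory T cell factor, at 0.897. Of the endothelial list 5 were called higher, among them Tie1 (4.40), and Kdr (0.491) was called lower, so that its median log2 ratio was 1.05 while its sum had a ratio of 1.29. In both lists Adora2a at 1.497 lay between the markers called higher and the marker called lower. Relative to the summed T cell and regulatory T cell markers, Adora2a was 1.25 times as high in P2Y4 KO PAT as in WT PAT (0.966 to 1.62). Relative to the summed endothelial markers it was 1.16 times as high (0.909 to 1.47). The part of these cells was not tested. Adora2b, the low-affinity receptor that answers high adenosine levels, had 712 reads (47.9 CPM) in P2Y4 KO PAT, against 781 reads (50.4 CPM) in WT PAT. Its ratio of 0.949 (0.857 to 1.05) turns to 1.09 when the ribosomal protein genes are set to 1. Adora2a (ENSMUSG00000020178) lies on chromosome 10 from 75316877 to 75334784 and Adora2b (ENSMUSG00000018500) on chromosome 11 from 62248984 to 62266453, both on the plus strand.

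Adora3 encodes the A3 receptor, which in rodents is known for triggering mast cells. It had 112 reads (7.55 CPM) in P2Y4 KO PAT, against 121 reads (7.85 CPM) in WT PAT, a ratio of 0.962 (0.739 to 1.26) that becomes 1.10 on the ribosomal protein scale. Of 8 mast cell markers 6 were called higher and none lower, and their summed level was 206 CPM in P2Y4 KO PAT and 84.55 CPM in WT PAT. Relative to these markers, Adora3 was 0.396 times as high in P2Y4 KO PAT as in WT PAT (0.303 to 0.516). Its ratio lay below those of the mast cell proteases, of which Mcpt4 had a ratio of 3.00 (2.56 to 3.53) and Cma1 a ratio of 2.38 (2.10 to 2.72), and the part of mast cells was not tested. Adora3 (ENSMUSG00000000562) is a plus-strand gene of chromosome 3, from 105870858 to 105908926. It shares 779 of its exon bases with Tmigd3 on the same strand, and Tmigd3 had 3.60 CPM in P2Y4 KO PAT and 4.15 CPM in WT PAT.

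The makeup of the receptor pool differed between the libraries. Levels of different genes were compared as CPM per kilobase of exon, which accounts for transcript length. Adora2b led in both libraries, with 25.9 in P2Y4 KO PAT (24.1 to 27.9, exact Poisson interval of the reads) and 27.3 in WT PAT (25.4 to 29.3). Adora1 stood at 5.83 (5.32 to 6.35) in P2Y4 KO PAT, the second of the 4 receptors, against 1.07 (0.867 to 1.31) in WT PAT, the lowest of the 10 genes. Of the summed receptor level per kilobase, Adora1 made up 15.6% in P2Y4 KO PAT and 3.25% in WT PAT, while Adora2b made up 69.2% in P2Y4 KO PAT and 82.9% in WT PAT. With the longest transcript as the length, the share of Adora1 was 16.8% in P2Y4 KO PAT and 3.59% in WT PAT.

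Ratios between receptors within a library do not depend on how the libraries were scaled. They were computed for 9 pairs of genes of a shared role, chosen after their values were seen. Per kilobase, Adora1 stood at 0.225 times Adora2b in P2Y4 KO PAT and at 0.0392 times in WT PAT, a difference of 5.72 (4.48 to 7.36) between the libraries. Against Adora2a it stood at 1.58 times in P2Y4 KO PAT and at 0.435 times in WT PAT, so that the order of these receptors was opposite in the 2 libraries, a difference of 3.63 (2.60 to 5.08). Against Adora3, the other Gi-coupled receptor, the difference was 5.62 (3.97 to 8.01). The pair of Gs-coupled receptors differed less, with Adora2a over Adora2b 1.57 times as high in P2Y4 KO PAT as in WT PAT (1.21 to 2.06).

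**Figure D2:**
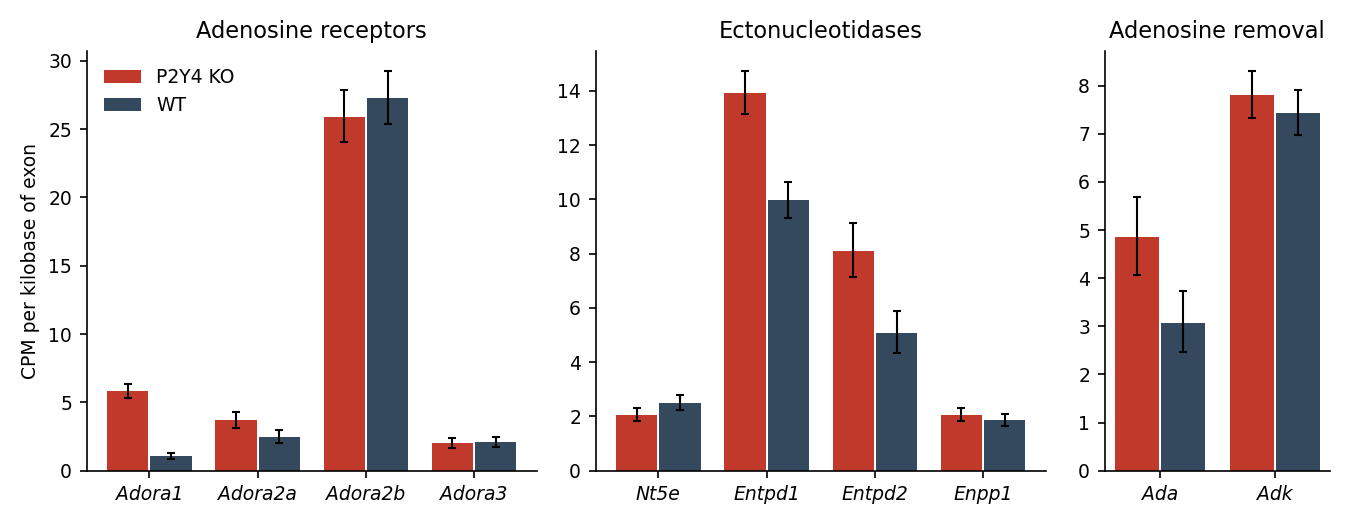
Level of each gene in CPM per kilobase of exon, by role, with red bars for the P2Y4 KO library, blue bars for the WT library and error bars for the exact 95% Poisson interval of the reads in that library. Adora2b is the tallest receptor in both libraries, and Adora1 stands at 5.83 in P2Y4 KO PAT and 1.07 in WT PAT.

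Among the 4 ectonucleotidases of the 10 genes, the ATP-cleaving enzymes had ratios above 1 and the AMP-cleaving enzyme a ratio below 1. For Enpp1, one of the ATP-cleaving enzymes, the counting interval spanned 1. All 4 were within the limit of 2. Entpd1 encodes CD39, which takes ATP and ADP to AMP on leukocytes and endothelium. It had 1156 reads (77.7 CPM) in P2Y4 KO PAT, against 862 reads (55.6 CPM) in WT PAT, a ratio of 1.40 (1.28 to 1.53). Entpd2, which mainly takes ATP to ADP, had 256 reads (17.2 CPM) in P2Y4 KO PAT, against 167 reads (10.8 CPM) in WT PAT, a ratio of 1.59 (1.31 to 1.95). These ratios were reached or exceeded by 19.4% and 14.1% of all genes tested. Entpd1 (ENSMUSG00000048120) lies on chromosome 19 from 40612366 to 40741602 and Entpd2 (ENSMUSG00000015085) on chromosome 2 from 25395874 to 25401321, both on the plus strand. Of the exon bases of Entpd2, 612 (28.8%) are shared with Npdc1 on the same strand, which at 80.3 CPM in P2Y4 KO PAT and 84.8 CPM in WT PAT was the more abundant gene.

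Nt5e encodes CD73, the enzyme that makes adenosine from AMP. It had 264 reads (17.8 CPM) in P2Y4 KO PAT, against 332 reads (21.45 CPM) in WT PAT, a ratio of 0.828 (0.702 to 0.977). On the ribosomal protein scale the ratio was 0.949 (0.805 to 1.12), so that the interval then spans 1. Enpp1, which splits ATP to AMP and pyrophosphate, had 314 reads (21.1 CPM) in P2Y4 KO PAT, against 296 reads (19.1 CPM) in WT PAT, a ratio of 1.105 (0.940 to 1.3). Nt5e (ENSMUSG00000032420) lies on the plus strand of chromosome 9 from 88327197 to 88372092 and Enpp1 (ENSMUSG00000037370) on the minus strand of chromosome 10 from 24637914 to 24712159.

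Within a library, the ATP-cleaving enzymes among the 10 genes (Entpd1, Entpd2 and Enpp1) were higher relative to Nt5e in P2Y4 KO PAT. Entpd3, which also cleaves ATP but is not among the 10, had a P2Y4 KO/WT ratio of 0.315 (0.252 to 0.387), below the 0.828 of Nt5e. Entpd1 stood at 6.75 times Nt5e per kilobase in P2Y4 KO PAT and at 3.995 times in WT PAT, a difference of 1.69 (1.40 to 2.04). With the longest transcript as the length the levels relative to Nt5e were 4.14 times in P2Y4 KO PAT and 2.45 times in WT PAT, with the same difference between the libraries, which does not depend on length. For Entpd2 over Nt5e the difference was 1.93 (1.49 to 2.50), and for Enpp1 over Nt5e 1.33 (1.06 to 1.68). Entpd2 over Entpd1 differed by 1.14 (0.918 to 1.43), an interval of counting error that spans 1. Entpd1 was the most abundant of the 4 ectonucleotidases of the 10 genes per kilobase in both libraries. It made up 53.3% of their summed level in P2Y4 KO PAT and 51.4% in WT PAT.

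Markers of the cells known to carry CD39 and CD73 differed between the libraries by different amounts. The 10 macrophage markers summed to 5793 CPM in P2Y4 KO PAT and 4800 CPM in WT PAT, with 1 called higher, and relative to this sum Entpd1 was 1.16 times as high in P2Y4 KO PAT as in WT PAT (1.06 to 1.26). The endothelial markers, given beside Adora2a, had ratios on both sides of those of Entpd1 and Nt5e. Relative to their sum, Entpd1 was 1.08 times as high in P2Y4 KO PAT as in WT PAT (0.976 to 1.20). Nt5e was 0.641 times as high relative to the same sum (0.541 to 0.759). Relative to the summed T cell and regulatory T cell markers, Entpd1 was 1.17 times as high (1.02 to 1.34). The 10 fibroblast markers, of which none was called, summed to 5113 CPM in P2Y4 KO PAT and 5566 CPM in WT PAT, and relative to this sum the Nt5e difference was 0.902 (0.767 to 1.06). The median log2 ratio of the fibroblast markers was 0.22, opposite in sign to the ratio of their sums, 0.919. The 8 mesothelial markers, 7 of them called lower, summed to 643 CPM in P2Y4 KO PAT and 2211 CPM in WT PAT. Relative to these, Nt5e was 2.85 times as high in P2Y4 KO PAT as in WT PAT (2.42 to 3.35). The part of these cells in the ratios of Entpd1 and Nt5e was not tested.

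Of the enzymes that remove adenosine, Ada had a ratio above 1 and Adk a ratio near 1. Ada encodes adenosine deaminase, which turns adenosine into inosine. It had 144 reads (9.70 CPM) in P2Y4 KO PAT, against 95 reads (6.15 CPM) in WT PAT, a ratio of 1.58 (1.21 to 2.07). T cells are known to be rich in Ada. The T cell and regulatory T cell markers, given beside Adora2a, had ratios on both sides of that of Ada, and their part was not tested. Adk encodes adenosine kinase, which returns adenosine to AMP inside the cell. It had 991 reads (66.6 CPM) in P2Y4 KO PAT, against 983 reads (63.4 CPM) in WT PAT, a ratio of 1.05 (0.961 to 1.15). On the ribosomal protein scale the Adk ratio was 1.20 (1.10 to 1.32). Ada over Adk stood at 0.620 per kilobase in P2Y4 KO PAT and at 0.413 in WT PAT, a difference of 1.503 (1.13 to 2.00), and with the longest transcript as the length at 0.366 in P2Y4 KO PAT and 0.244 in WT PAT. Ada (ENSMUSG00000017697) lies on the minus strand of chromosome 2 from 163726584 to 163750239 and Adk (ENSMUSG00000039197) on the plus strand of chromosome 14 from 21052574 to 21448569.

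Ordered by CPM per kilobase, the 10 genes in P2Y4 KO PAT ran from Adora2b through Entpd1, Entpd2, Adk, Adora1, Ada, Adora2a, Nt5e and Enpp1 to Adora3. In WT PAT the order was Adora2b, Entpd1, Adk, Entpd2, Ada, Nt5e, Adora2a, Adora3, Enpp1 and Adora1. Neighbours whose intervals overlapped were Entpd2 and Adk, Adora1 and Ada, Ada and Adora2a, Nt5e and Enpp1, and Enpp1 and Adora3 in P2Y4 KO PAT. In WT PAT they were Ada and Nt5e, Nt5e and Adora2a, Adora2a and Adora3, and Adora3 and Enpp1. Adora1 was thus the fifth in P2Y4 KO PAT and the last in WT PAT, apart from its neighbour Enpp1 there. With the longest transcript as the length, 6 of the 10 genes took another rank in each library. Adk then stood above Entpd2 in P2Y4 KO PAT (15.7 and 8.89) and above Entpd1 in WT PAT (14.9 and 13.2), while Adora2b stayed the first and Adora1 kept its rank in both libraries.

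**Figure D3:**
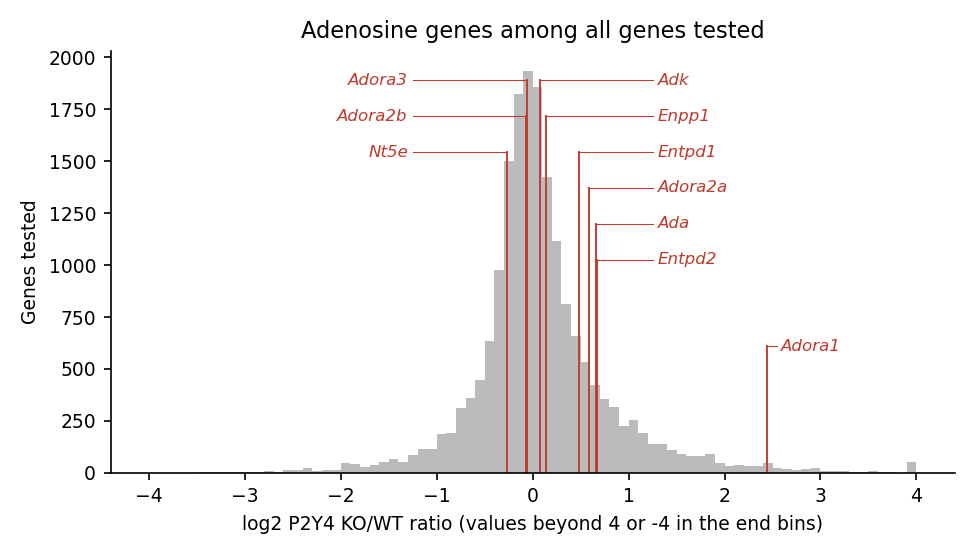
Histogram of the log2 P2Y4 KO/WT ratio over the 18474 genes tested (grey, number of genes on the vertical axis), with a red line at the value of each of the 10 adenosine genes. Values past the ends of the axis are in the end bins. Adora1 lies in the right tail at 2.44, and the other 9 lie between -0.27 and 0.67.

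The promoter windows of Adora1, Entpd2, Adora2b and Nt5e are shown because these genes span the range of ratios and because human ADORA2B and NT5E are known as targets of hypoxia-inducible factors. RefSeq windows in GRCm38.p6, each from 250 bases before to 50 after a start site, were at hand for 9 of the 10 genes, 12 windows in all, and Adora2a was not matched. They were searched on both strands for ACGTG, the core of the hypoxia response element, which can overlap an E-box, and for TGACG and TGACGTCA, the short and the full form of the cyclic AMP response element, the first of which is contained in the second. Capitals mark ACGTG or its reverse complement CACGT, and each sequence runs 5′ to 3′ on the strand of the gene. The Adora1 window is chr1:134235408-134235707 on the minus strand, that of Entpd2 chr2:25395624-25395923, that of Adora2b chr11:62248734-62249033 and that of Nt5e chr9:88327359-88327658, these 3 on the plus strand.
Adora1: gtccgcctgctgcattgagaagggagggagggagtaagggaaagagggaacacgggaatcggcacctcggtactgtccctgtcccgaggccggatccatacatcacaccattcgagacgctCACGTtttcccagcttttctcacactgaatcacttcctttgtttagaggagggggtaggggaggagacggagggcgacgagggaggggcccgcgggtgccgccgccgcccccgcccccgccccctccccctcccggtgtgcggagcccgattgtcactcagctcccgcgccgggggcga
Entpd2: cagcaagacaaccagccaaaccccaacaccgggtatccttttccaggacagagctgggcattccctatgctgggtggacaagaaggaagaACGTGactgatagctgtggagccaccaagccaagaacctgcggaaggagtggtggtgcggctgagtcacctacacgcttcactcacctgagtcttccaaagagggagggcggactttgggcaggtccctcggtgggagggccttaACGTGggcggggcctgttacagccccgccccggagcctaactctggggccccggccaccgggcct
Adora2b: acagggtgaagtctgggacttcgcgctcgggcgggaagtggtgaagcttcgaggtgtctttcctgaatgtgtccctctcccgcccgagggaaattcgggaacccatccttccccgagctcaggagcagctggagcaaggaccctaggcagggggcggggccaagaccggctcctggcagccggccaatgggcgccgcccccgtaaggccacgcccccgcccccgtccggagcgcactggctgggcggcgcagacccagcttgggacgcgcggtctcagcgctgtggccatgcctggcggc
Nt5e: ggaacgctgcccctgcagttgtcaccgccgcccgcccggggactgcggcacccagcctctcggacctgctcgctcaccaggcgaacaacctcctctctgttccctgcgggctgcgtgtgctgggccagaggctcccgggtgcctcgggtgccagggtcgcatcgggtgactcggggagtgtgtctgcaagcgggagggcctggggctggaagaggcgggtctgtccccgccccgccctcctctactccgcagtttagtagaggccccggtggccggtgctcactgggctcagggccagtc

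The core ACGTG was found in windows of 3 of the 9 genes, Adora1, Entpd2 and Enpp1, that is in 3 of 12 windows, beside 19.6% of all 32851 windows of this length. It began at base 122 of the Adora1 window, counted from the 5′ end, and at bases 91 and 236 of the Entpd2 window. The second Adora1 start site, further into the gene, had none. The short form TGACG was found in windows of Entpd1, Enpp1 and Adk, beside 20.8% of all windows, and the full form in none of the 12, beside 1.79%. A match gives the letters only and shows neither a bound site nor a cause, and a window without a match says nothing of the factor.

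Beyond the 10 genes, 59 other genes of the pathway were set in 5 lists, and 52 of them were tested. Of these, 4 (7.69%) were called higher and 2 (3.85%) lower, shares near the 8.75% and 4.4% of all genes tested. Among other ectonucleotidases and ecto-phosphatases none of 11 was called higher and 2 were called lower (median log2 ratio -0.13). Entpd3, which cleaves ATP and ADP, had 7.70 CPM in P2Y4 KO PAT and 24.45 CPM in WT PAT, a ratio of 0.315 (0.252 to 0.387). Acpp, a phosphatase that can make adenosine from AMP, had 2.30 CPM in P2Y4 KO PAT and 7.90 CPM in WT PAT, a ratio of 0.291 (0.192 to 0.428). Alpl, another phosphatase of the list, picked after its value was seen, went the other way. It had 17.3 CPM in P2Y4 KO PAT and 12.45 CPM in WT PAT, a ratio of 1.39 (1.15 to 1.68). The most abundant of the list were Enpp2, which makes lysophosphatidic acid and had a ratio of 0.911, and Bst1, an enzyme that acts on NAD and had a ratio of 0.931. Of the other relatives of Entpd1, picked after their values were seen, Entpd5 had the highest ratio of the list at 1.79 (1.59 to 2.00), and Entpd6 had 0.924 (0.791 to 1.08).

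On the ribosomal protein scale the median of the ectonucleotidase and ecto-phosphatase list was 0.06, and the medians of the lists of nucleotide release (-0.10), nucleoside transporters (-0.09) and intracellular enzymes (-0.04) also turned positive, at 0.10, 0.11 and 0.15. No direction is given for these lists.

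Genes of ATP release and nucleoside transport passed the limit in neither direction. Gja1, the connexin whose hemichannels can release ATP, had a ratio of 0.727 (0.688 to 0.769), and Panx1, which forms the pannexin channel, had 1.31 (1.09 to 1.58). Of 4 nucleoside transporters tested, the equilibrative transporter Slc29a1, which takes adenosine into cells, had 58.8 CPM in P2Y4 KO PAT and 64.5 CPM in WT PAT (ratio 0.912). The concentrative transporter Slc28a2 had a ratio of 0.972 (0.886 to 1.07). Slc29a2, another equilibrative transporter, picked after its value was seen, was the one of the 4 with an interval off 1, at 0.612 (0.481 to 0.770). Of 19 intracellular enzymes of adenosine and AMP metabolism, Nt5c1a, a cytosolic nucleotidase that makes adenosine from AMP in muscle, was the one called higher (ratio 2.07, 1.02 to 4.95). It rested on 23 reads in P2Y4 KO PAT and 11 in WT PAT, and with 0.5 CPM added to both libraries none of the list was called. Purine nucleoside phosphorylase, Pnp, which takes up the chain after Ada by splitting inosine, had 242 CPM in P2Y4 KO PAT and 186 CPM in WT PAT, a ratio of 1.305 (1.24 to 1.37).

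The G proteins and adenylyl cyclases through which the receptors act had a median log2 ratio of 0.22, with 3 of 15 called higher and none lower. The shares over all genes tested were 8.75% higher and 4.4% lower. Adcy5, a cyclase of heart and brain that Gi proteins inhibit, had 31.9 CPM in P2Y4 KO PAT and 14.6 CPM in WT PAT, a ratio of 2.19 (1.87 to 2.58). Gnao1, which encodes the Go alpha subunit, had 3.00 CPM in P2Y4 KO PAT and 1.10 CPM in WT PAT (ratio 2.73, 1.51 to 5.03). Adcy2 rested on 13 reads in P2Y4 KO PAT and 3 in WT PAT (ratio 4.50, 1.24 to 24.7). The abundant subunits Gnai2 and Gnas, the alpha subunits of Gi and Gs, had ratios of 1.11 and 1.16. Gnai1, another Gi alpha subunit, picked after its value was seen, had 41.05 CPM in P2Y4 KO PAT and 22.2 CPM in WT PAT, a ratio of 1.85 (1.62 to 2.12). The cardiomyocyte and adipocyte markers given beside Adora1 were higher beside these genes too, and their part was not tested.

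Of the other cell types looked at, neutrophil markers were called lower in 4 of 10 and B cell, pericyte and smooth muscle and Schwann cell markers were called higher in 2 of 6, 3 of 8 and 2 of 5 tested, with 1 Schwann cell marker lower. Their summed levels were nearer to each other than those of the adipocyte markers, for example 1849 CPM in P2Y4 KO PAT and 2155 CPM in WT PAT for the neutrophil markers. The neutrophil sum is weighted to abundant markers such as S100a9 (ratio 0.953), while Retnlg had a ratio of 0.275. The median log2 ratio of the neutrophil markers was -0.588.

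None of 19 hypoxia-induced genes was called in either direction (median log2 ratio 0.20). For 10 of them the counting interval lay above 1 and for 1 below, beside 25.2% and 23.5% of all genes tested. These shares are not alike, since more reads give a narrower interval. The median gene tested had 269 reads in each library, while Aldoa, one of the 19, had 20365 in P2Y4 KO PAT. The highest ratios, picked after they were seen, were 1.94 (1.79 to 2.10) for Vegfa, the endothelial growth factor, and 1.87 (1.499 to 2.36) for Adm, the vasodilator peptide adrenomedullin. On the ribosomal protein scale 2 of the 19 were called higher and the median was 0.40. The glycolytic enzyme genes Aldoa and Ldha had ratios of 1.38 and 1.20. Nt5e and Adora2b, whose human counterparts are known hypoxia targets, had ratios of 0.828 and 0.949.

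**Figure D4:**
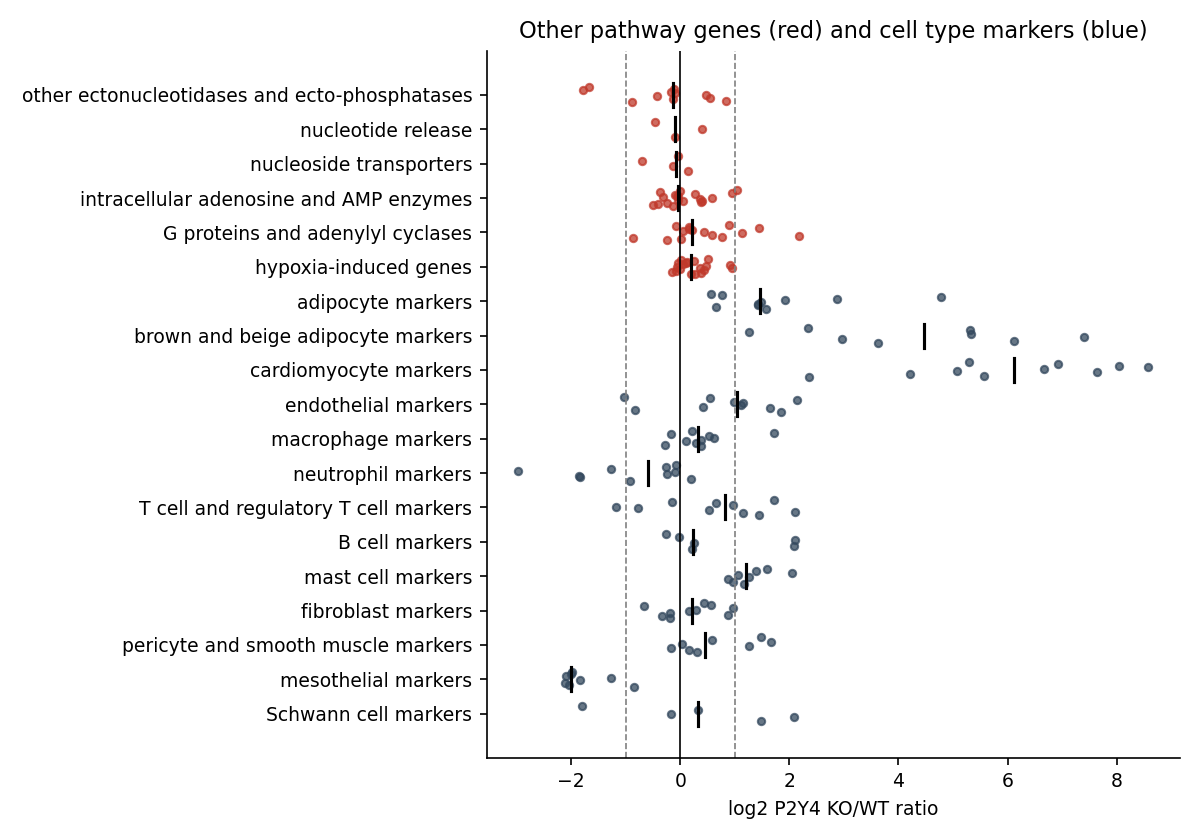
Log2 P2Y4 KO/WT ratio of each tested gene (points) in the lists of other pathway and hypoxia-induced genes (red) and of cell type markers (blue), with a black bar at the median of a list and dashed lines at -1 and 1. Most pathway genes lie between the dashed lines, while all cardiomyocyte and all brown and beige adipocyte markers lie to the right of them and 7 of 8 mesothelial markers to the left.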

How the data were processed

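RNA of PAT from 3 mice per genotype was pooled, and stranded mRNA libraries were sequenced in pairs. The submitters' notes list Trimmomatic among their tools. Per the paper's methods, the authors used STAR to map to GRCm38.p4 and HTSeq to count reads per Ensembl release 87 gene. Tool versions and the strand setting were not given in the sources used here. By its steps, the deposited signal is a read number that was brought to a library total of 20000000 and rounded up, and genes without a read in WT PAT are not analysed here. The authors' own ratios and their table of regulated genes were not used.

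Reads were recovered as the whole number whose scaled value, rounded up, equals the deposited value, which held with no tolerance for 99.85% of the P2Y4 KO and 99.89% of the WT values. No count model was fitted, since each genotype has 1 library. Ratios came from deposited values without a pseudocount. Where a symbol had several rows, the most abundant was used. Exon lengths and positions were from GENCODE M21 (GRCm38). The members, the lists and the rule for named genes (all members, the called genes of a short list and its 2 most abundant others, of which 1 is not reported here) were chosen with earlier results of these data known, and single marker genes were picked after their values were seen. Python 3.11.15, SciPy 1.17.1 and pandas 2.3.3 were used, and the scripts were tested on simulated data. Alternatives were other scalings, filters, folds, lengths and a pseudocount of 0.5 CPM.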

Additional observations from a re-analysis of the deposited data

How the results depend on the processing

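Adora1 was called higher under every alternative tried, with ratios from 5.10 with 0.5 CPM added to 6.23 on the ribosomal protein scale, and its rank per kilobase was unchanged with both other lengths. Several alternatives could not have changed this call. At the ratio and levels of Adora1, the 1.5-fold limit, the CPM filters and the counting interval had to leave it called. The median-of-ratios factor was 1.0 and left every ratio as it was. With the ribosomal protein genes set to a ratio of 1, Adora2b (1.09) and Adora3 (1.10) moved to the other side of 1, Adk stood at 1.20 and Entpd1 at 1.60, and the counting interval lay above 1 for 7 of the 10 genes and below 1 for none, beside 42.2% and 10.2% of all genes. Higher genes then made up 80.2% of those past the limit, against 66.6% as deposited. Of the 10 genes, 3 were called higher at 1.5-fold, and by the counting interval 5 higher and 1 lower. Over all genes, 1617 were called higher and 812 lower. The higher count was 1028 with 0.5 CPM added, 1056 with CPM above 0.5 in both libraries, 3039 at 1.5-fold and 4648 by the counting interval. The lower count was 531 on the ribosomal protein scale, 387 with 0.5 CPM added, 451 with CPM above 0.5 in both libraries, 2352 with no filter, 1890 at 1.5-fold and 4345 by the counting interval. Of the other pathway genes, 7 were called higher on the ribosomal protein scale, 9 higher and 5 lower at 1.5-fold, and 21 higher and 17 lower by the counting interval. The lower bar or the weaker filter by construction calls more genes, and the cause of the other changes was not tested. Of the 286 values of single genes and lists under the alternatives, 261 stayed and 25 moved. A gene ratio stayed if it lay inside its counting interval, so that Adora3 stayed though it crossed 1. A count stayed if it was equal or within 1.5 times, and a median if it shifted by less than the standard deviation of its list. Part of the 261 could not move, since the median-of-ratios factor changed nothing and a fold limit leaves medians as they are. Adora1, the called gene of the 10, kept its direction, but 2 uncalled genes of the 10 and the medians of 4 lists changed sign on the ribosomal protein scale. The recovered reads and the exon bases of no other gene were added as alternatives after seeing the data. No paired analysis was possible because each genotype has 1 library. With 1 pool per genotype, variation between mice could not be measured.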

Other observations

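Some genes of the pathway were at the edge of detection in PAT. The nucleoside transporter genes Slc28a1, with 1 read in each library, and Slc28a3 and Slc29a4, with 3 reads in each, lay under the CPM filter. Enpp6 had 6 reads in P2Y4 KO PAT and 5 in WT PAT, and Adcy8 had 2 reads in P2Y4 KO PAT and 7 in WT PAT. A difference in these genes was not detectable at this depth. Entpd8 and Ampd1 were not analysed here.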
